A study of Salmo salar with 18 samples.

Results

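The gene set described here holds the 100 genes whose level in the gill of Atlantic salmon followed that of hbb1, a hemoglobin beta chain gene (ENSSSAG00000111938), most closely from fish to fish. They were taken from 21541 ranked genes, of which they make up 0.464%, out of 42615 genes on the 16 chromosomes used and 69389 genes in the files. For each gene the level in log2 CPM (counts scaled to a common total over these chromosomes, with 0.5 added to each count) was reduced by its mean in the fish's own group. Genes with a mean of at least 1 CPM were ranked by Pearson's r of these deviations with those of hbb1 over 18 libraries. A neighbouring gene of hbb1 (ENSSSAG00000065233), which has no symbol here, and hbb1 itself were left out. Because the deviations carry no group means, differences between diets and sampling times were not used in the choice, whereas every r with hbb1 was.

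The fish were Atlantic salmon parr of the GEN-innOva GAIN stock from AquaGen, and every group had 3 fish with 1 gill library each. LAN4 fish received a commercial-like feed supplemented with LAN4, a hydrolyzed product of the yeast Debaryomyces hansenii, and CD fish received the same feed without it. Gills were taken before stress, and at 1 h and 6 h after a brief spell in a net out of the water, which both diets underwent. The paper kept the fish of each diet in several tanks before the stress, and the labels do not give the tank of each sequenced fish. If each diet and time had its own tank, tank could not be told apart from diet or time. The p-values therefore measure the spread between these fish only. Libraries held 7323608 to 14644411 counted fragments on the 16 chromosomes, with the lowest total in LAN4 pre-stress replicate 3.

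Hemoglobin carries oxygen in erythrocytes, which in fish keep their nucleus and go on making RNA while they circulate. Gill tissue is filled with blood, so a gill library contains erythrocyte RNA beside that of epithelial, pillar, ion-transporting and immune cells. Heme, the iron-bearing group of hemoglobin, is built by a chain of enzymes that starts in erythroid cells with alas2, and gata1 is the transcription factor that directs the erythroid genes. In whole gill, fewer cells of a type and less RNA per cell cannot be told apart.

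The level of hbb1 differed widely between fish of one group. Before stress it was 206.8, 240.2 and 104.7 CPM in LAN4 fish, against 195.5, 119.2 and 217.9 CPM in CD fish. At 1 h it was 139.1, 185.2 and 221.8 CPM in LAN4 fish, against 59.95, 82.94 and 113.2 CPM in CD fish. At 6 h it was 62.67, 112.3 and 157.9 CPM in LAN4 fish, against 203.8, 311.2 and 143.3 CPM in CD fish. The diets overlapped before stress and at 6 h, and at 1 h every LAN4 fish lay above every CD fish. The within-group SD of hbb1 was 0.53 on the log2 scale, with deviations between -0.73 and 0.61. Its counts ran from 605 to 4526 fragments per library. Fragments mapped to several places or genes were not counted, so this level need not be that of all hemoglobin RNA in the gill.

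The 100 genes had r between 0.906 and 0.7606 with a median of 0.785, against a median of -0.083 over all ranked genes. These values chose the genes and are given as a description. Just inside the limit stood LOC106581001 and LOC106604896, both at 0.7607, and LOC106612578 at 0.7606. Just outside stood LOC106568161 at 0.7604, ccdc90b at 0.7603 and LOC106579006 at 0.7596, so the limit marks no gap. At the other end, 136 genes had r at or below the negative of the limit. Among the 4950 pairs of the 100 genes, r had a median of 0.68 and ranged from 0.26 to 0.96. Genes chosen for a high r with the same gene also correlate with each other, so the choice itself raises the r of these pairs. The points also share libraries and their depth.

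**Figure D1:**
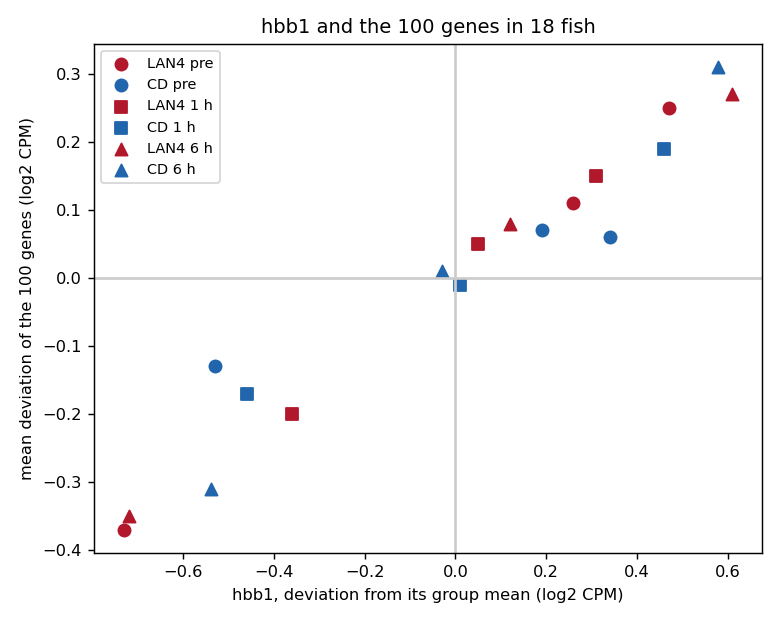
Mean deviation of the 100 genes from their group means (vertical, log2 CPM) against the deviation of hbb1 (horizontal, log2 CPM), 1 point per fish, colours for diet and shapes for sampling time. The lowest fish are LAN4 pre-stress replicate 3 (-0.73 for hbb1 and -0.37 for the genes) and LAN4 6 h replicate 1 (-0.72 and -0.35), and the highest for the genes is CD 6 h replicate 2 (0.58 and 0.31).

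In 62 of the 100 genes the fish highest in hbb1 exceeded the fish lowest in hbb1 in all 6 groups, and in the other 38 genes this held in 5 groups. Among ranked genes these shares were 1.98% and 10.5%, and since the choice of the genes by r fixes this order, the counts only describe it. None of the 100 genes lay above its group mean in LAN4 pre-stress replicate 3 or in LAN4 6 h replicate 1, whereas 99 did in CD 6 h replicate 2 and 98 in LAN4 6 h replicate 3. The size of the movement differed from gene to gene. Within-group SD ran from 0.08 to 1.22 with a median of 0.24, against 0.21 over ranked genes, and only 11 of the 100 genes varied more than hbb1. Mean levels ran from 1.02 to 536 CPM with a median of 18.7 CPM, close to the 18.4 CPM of ranked genes.

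Several measures of the libraries moved with the genes, and their part in the pattern was not tested. Over the 18 libraries the mean deviation of the 100 genes had r = 0.55 with log2 fragments, 0.37 with the number of genes detected and 0.56 with the share of counts in the 100 largest genes. With the first and second principal components of the deviations of all ranked genes, which hold 19.5% and 13.4% of their variance, r was 0.60 and -0.63. At 6 h, the share of counted fragments that fell on the 16 chromosomes was 79.88%, 99.08% and 89.71% in LAN4 fish, against 97.26%, 99.02% and 85.43% in CD fish, and the lowest fish of each diet was also its lowest in hbb1. In the other libraries this share lay between 72.29% and 72.73%.

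Of the 100 genes, 69 matched a RefSeq gene of the same assembly by position, 26 of them with a symbol and 43 with a LOC number, while 31 had no match. The genes with a symbol have varied roles, and no theme was tested among them. Part of them are taken below, in an order of roles made after the genes were known. Only rhd and ypel3 stood on a list of erythrocyte genes. Ssal_v3.1 places the 100 genes on all 16 chromosomes, with 14 on chromosome 2, 13 on chromosome 1 and 12 on chromosome 9, which hold 7.42%, 8.72% and 7.77% of ranked genes. A further gene of the set lay within 200000 bp of 13 of them, whereas 3.81% of ranked genes had one within that distance.

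LOC106571990 (ENSSSAG00000065211, chromosome 15, 82344497 to 82367473) had the highest r, 0.906. It had 68.0, 67.9 and 58.6 CPM in LAN4 pre-stress fish, against 66.5, 61.8 and 67.2 CPM in CD pre-stress fish. At 1 h it had 72.4, 75.3 and 82.6 CPM in LAN4 fish, against 63.5, 69.6 and 79.3 CPM in CD fish. At 6 h it had 64.3, 72.3 and 73.6 CPM in LAN4 fish, against 72.1, 86.1 and 62.4 CPM in CD fish. The diets overlapped at each time, and its within-group SD of 0.142 was small beside that of hbb1.

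Among genes of protein synthesis, eif4ebp2, which encodes a protein that holds back translation by binding the cap-binding factor eIF4E, had r = 0.863. It measured 82.3, 73.7 and 69.8 CPM in LAN4 pre-stress fish, against 74.7, 67.0 and 76.0 CPM in CD pre-stress fish. At 1 h it measured 79.5, 91.3 and 85.5 CPM in LAN4 fish, against 73.8, 73.7 and 82.1 CPM in CD fish. At 6 h it measured 68.4, 81.6 and 88.1 CPM in LAN4 fish, against 81.7, 98.1 and 74.0 CPM in CD fish. The diets overlapped at all 3 times. The ribosome assembly genes pno1 (small subunit, r = 0.804) and gtpbp4 (large subunit, r = 0.767) averaged 71.2 and 187.6 CPM and had SDs of 0.158 and 0.127.

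The transcription genes were nelfe, a subunit of the complex that pauses RNA polymerase II (r = 0.817, mean 40.6 CPM), and lmo4a, a LIM-domain cofactor (r = 0.824, mean 62.4 CPM). Cyclin D1 (ccnd1), which drives entry into the cell cycle, had r = 0.785, while the median r of the 10 ranked genes on the cell cycle list was -0.55. At 6 h ccnd1 measured 42.0, 49.9 and 59.0 CPM in LAN4 fish, against 46.5, 71.4 and 44.1 CPM in CD fish. In both diets its highest fish was the fish highest in hbb1, an order that the choice by r favours. Further named genes were fpgt, of fucose metabolism (0.847), spout1, a putative RNA methyltransferase (0.832), and zdhhc15b, a palmitoyl transferase (0.808). The ubiquitin ligase gene rchy1 had r = 0.777.

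Of the genes outside these groups, acer1, an alkaline ceramidase, had r = 0.794 and flcn, the folliculin gene, had r = 0.778. The DNA repair glycosylase gene ogg1 had r = 0.764. Clusterin (clus), a secreted chaperone, had r = 0.765 and varied more than most, with an SD of 0.435. Before stress clus measured 86.9, 147 and 44.0 CPM in LAN4 fish, against 63.7, 69.8 and 86.6 CPM in CD fish, and the LAN4 range took in every CD fish. The widest swing belonged to LOC106563833 (SD 1.22), with 14.2, 33.9 and 2.32 CPM in LAN4 pre-stress fish, against 11.3, 7.28 and 15.6 CPM in CD pre-stress fish. LOC106563833 was singled out after its values were seen.

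**Figure D2:**
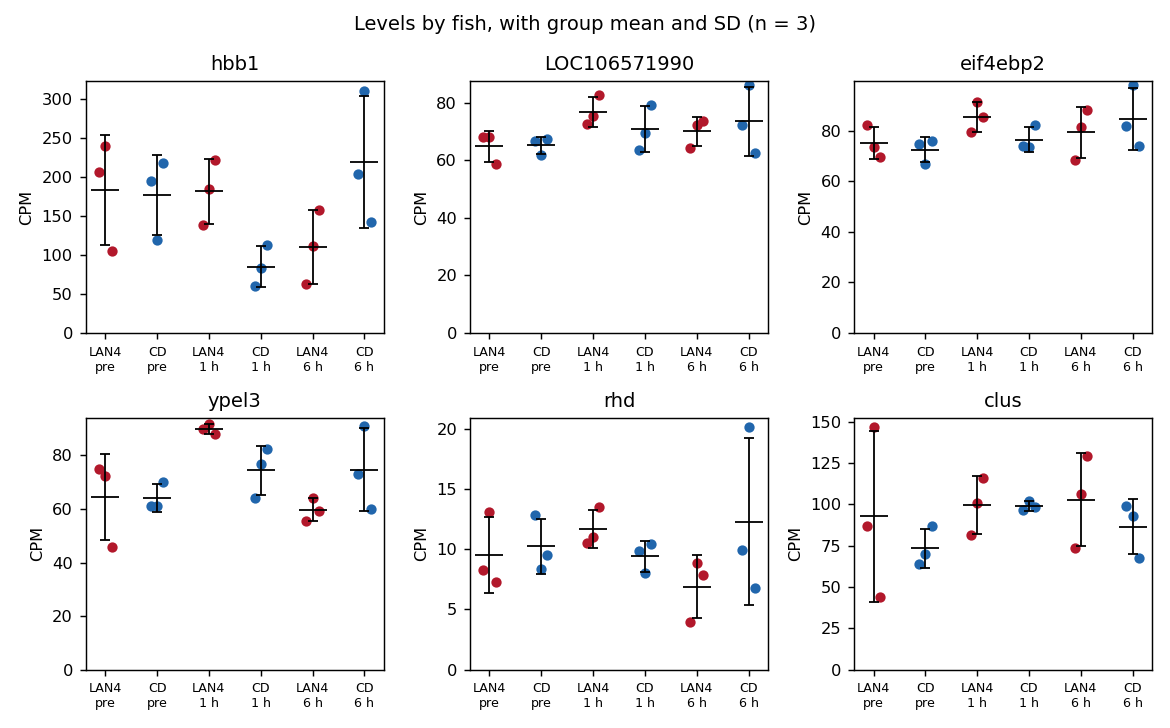
Levels in CPM (vertical) of hbb1 and of 5 of the 100 genes in each of 18 fish (points), by diet and time, with the group mean and SD (bars, n = 3). The diets overlap in eif4ebp2 at each time, while at 1 h every LAN4 fish lies above every CD fish in hbb1 and in ypel3.

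On 6 lists of erythrocyte genes 41 genes other than hbb1 could be ranked. Of these, 2 were among the 100, a larger share than the 0.464% of all ranked genes. Of the 41, 20 had r above 0, against 43% of ranked genes. With r of at least 0.5 there were 10, also a larger share than the 7.96% of ranked genes. Yet the median r of the 41 was -0.01, near the -0.083 of all ranked genes. The same r chose the set, so these shares only describe it. No gene of the 12 lists for other cell types and processes was in the set, out of 60 ranked, and 13 of these 60 had r above 0. Among these lists, the neutrophil list had 5 of 7 ranked genes above 0 and a median r of 0.17, so r above 0 was not particular to erythrocyte lists. The label of a set that varies with hemoglobin holds by construction. Whether it is a set of erythrocyte genes was not tested, nor which gill cells express the list genes. Of 310 list names 127 matched, and no globin other than hbb1 could be ranked.

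The Rh blood group gene rhd, a membrane protein of red cells in humans, had r = 0.776 and a mean of 10.0 CPM. Before stress it measured 8.24, 13.1 and 7.24 CPM in LAN4 fish, against 12.8, 8.34 and 9.54 CPM in CD fish. At 1 h it measured 10.5, 11 and 13.5 CPM in LAN4 fish, against 9.81, 7.99 and 10.4 CPM in CD fish. At 6 h it measured 3.92, 8.88 and 7.90 CPM in LAN4 fish, against 9.96, 20.1 and 6.82 CPM in CD fish. The diets were apart only at 1 h, with LAN4 higher, by a narrow margin. Its partner rhag, the Rh-associated glycoprotein, had r = -0.06 at a mean of 685 CPM.

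The second list gene in the set, ypel3, is a yippee-like gene with r = 0.782. At 1 h it measured 89.9, 91.8 and 88.0 CPM in LAN4 fish, against 64.3, 76.8 and 82.3 CPM in CD fish. At 6 h it measured 55.7, 64.2 and 59.3 CPM in LAN4 fish, against 73.0, 90.9 and 60.1 CPM in CD fish. LAN4 fish were thus above all CD fish at 1 h, whereas the diets overlapped at 6 h. The edgeR log2 fold change of LAN4 over CD was 0.33 ± 0.17 (SE) at 1 h and -0.36 ± 0.17 at 6 h, with adjusted p of 0.631 and 0.317.

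Outside the set, and not next to the limit, were gata1 (r = 0.72, rank 176) and alas2 (r = 0.71, rank 196). The erythropoietin receptor gene epor had r = 0.59, the superoxide dismutase gene sod1 0.59 and tal1, an erythroid transcription factor gene, 0.53. Opposite values were found in the same lists: the transferrin receptor gene tfr1a had -0.30, the anion exchanger gene slc4a1b -0.28, nfe2 -0.40 and ppox, an enzyme of heme synthesis, -0.63. The neighbour of hbb1 had r = 0.34 over all fish, with 0.77 before stress, -0.08 at 1 h and -0.12 at 6 h. Within 100000 bp of hbb1, 11 ranked genes had r from -0.53 to 0.76.

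**Figure D3:**
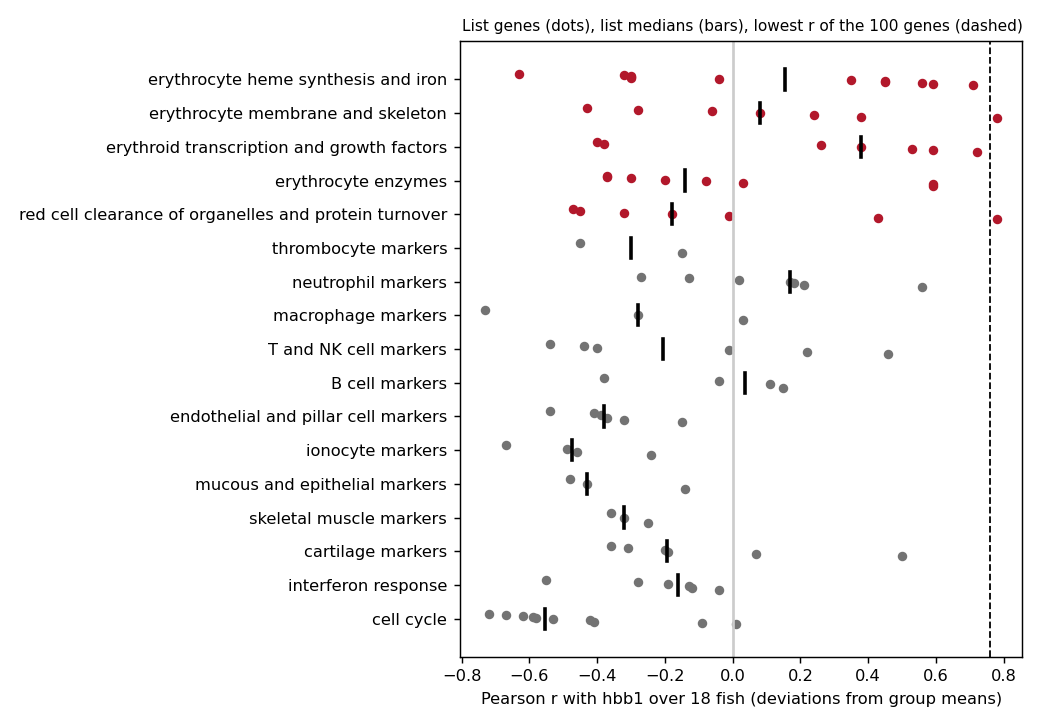
Pearson's r with hbb1 over 18 fish (horizontal) for the ranked genes of each list (dots, red for erythrocyte lists and grey for others), with the median of each list (black bar) and the lowest r of the 100 genes (dashed line). Only rhd and ypel3 lie beyond the dashed line, and the list medians run from -0.55 for cell cycle genes to 0.38 for erythroid transcription and growth factors.

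To see how far the set depended on the fish that chose it, the 100 genes of highest r were chosen again on the fish of 2 sampling times and read in the 6 fish of the third. This check was added after seeing the data. In the fish left out, the median r was 0.18 before stress, 0.30 at 1 h and 0.48 at 6 h, with 62, 71 and 79 of 100 genes above 0. Among ranked genes the medians were -0.04, -0.24 and -0.09, and the shares above 0 were 47.7%, 39.1% and 46.2%. Each r rests on 6 fish and the genes move together, so these counts are not 100 separate observations. Of the genes chosen this way, 30, 47 and 32 were in the set chosen on all fish. With 1 library left out the number of shared genes ranged from 45, without LAN4 6 h replicate 1, to 86, without LAN4 1 h replicate 2. It was also low at 49 without CD pre-stress replicate 3, 51 without CD pre-stress replicate 2, 52 without LAN4 pre-stress replicate 3 and 56 without LAN4 pre-stress replicate 2.

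**Figure D4:**
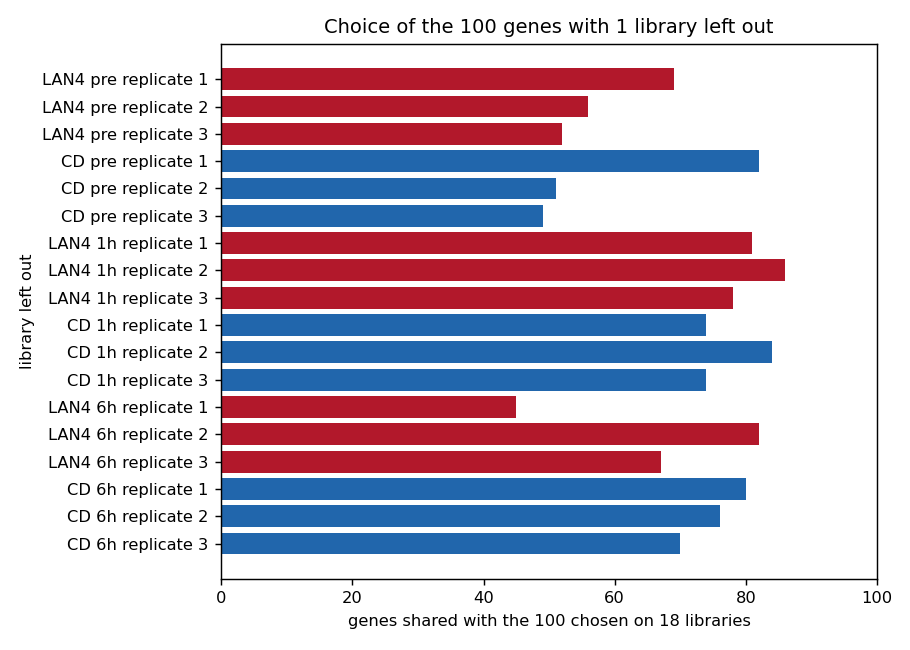
Number of genes shared with the set of 100 (horizontal) when 1 library was left out of the choice (1 bar per library, red for LAN4 and blue for CD). The shortest bar, 45, belongs to LAN4 6 h replicate 1 and the longest, 86, to LAN4 1 h replicate 2.

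The diets were compared at each sampling time to ask whether the feed changed the level of these genes. No gene of the set passed an adjusted p of 0.05 in edgeR's quasi-likelihood test before stress, at 1 h or at 6 h, where 0.00864%, 0% and 0.587% of all 23153 genes tested did. At an unadjusted p under 0.05 the counts were 5, 8 and 13 of 100, no more than the shares of all genes, 9.29%, 8.33% and 15.4%. DESeq2 gave 0 before stress and at 1 h, against 0.454% and 0.0907% of all genes, and 4 at 6 h, 1 higher and 3 lower in LAN4, against 3.5% of all genes. The median log2 fold change of LAN4 over CD was -0.09 before stress, with 30 of 100 genes above 0. It was 0.14 at 1 h, with 72 above 0, and -0.17 at 6 h, with 20 above 0. Over all genes 47.8% to 50% were above 0. Leaving out 1 library moved these medians to between -0.17 and 0.02 before stress, 0.06 and 0.24 at 1 h, and -0.28 and -0.03 at 6 h. The sign turned before stress without LAN4 replicate 3, and the value nearest 0 was reached at 1 h without CD replicate 1 or LAN4 replicate 3, and at 6 h without CD replicate 2. The genes move together from fish to fish, so these counts are not 100 separate observations.

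For hbb1 itself the log2 fold change of LAN4 over CD was 0.04 ± 0.41 (SE) before stress, 1.15 ± 0.42 at 1 h (adjusted p = 0.572) and -1.03 ± 0.42 at 6 h (adjusted p = 0.256, edgeR). The two-sided exact permutation test of 3 against 3 fish gave p = 0.1 at 1 h, the smallest it can give, and p = 0.2 at 6 h. The neighbour fell to 1105, 696 and 913.1 CPM in LAN4 fish at 6 h, against 1929, 2477 and 2045 CPM in CD fish. Its groups did not overlap and its log2 fold change was -1.29 ± 0.27 (edgeR, adjusted p = 0.0434), a call kept in 10 of 24 other settings, with an adjusted p of up to 0.197 (without LAN4 6 h replicate 2). None of the 41 erythrocyte list genes passed this test at 6 h, and the list medians ran from -0.25 for transcription and growth factors and -0.22 for heme synthesis and iron to 0.03 for membrane and skeleton.

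LAN4 fish lay wholly above CD fish in 13 genes of the set at 1 h, against 4.83% of ranked genes, and below in 7, against 10.3%. At 6 h they lay above in 1 gene, against 12.7%, and below in 5, against 6.59%. Before stress the counts were 3 above, against 9.02%, and 13 below, against 6.94%. Among genes of the set, slc26a6.2, an anion exchanger gene, had 1.08, 1.91 and 1.48 CPM in LAN4 fish at 6 h, against 3.32, 3.58 and 2.62 CPM in CD fish. These groups did not overlap, and the log2 fold change of -1.11 ± 0.30 did not pass the test (edgeR, adjusted p = 0.0828). The opposite direction was seen in ENSSSAG00000095013, higher in LAN4 fish at 6 h by 0.59 ± 0.15, which did not pass either (edgeR, adjusted p = 0.0709). Like LOC106563833, slc26a6.2 was singled out after its values were seen.

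Some marker lists of other cell types also stood apart between the diets, in sums of CPM over the list genes on the 16 chromosomes. Single ranked genes often did too: LAN4 fish lay wholly above CD fish in 9.02% before stress, 4.83% at 1 h and 12.7% at 6 h. They lay wholly below in 6.94%, 10.3% and 6.59%, so a list that stands apart is no result by itself. The lists of other cell types and processes not named here overlapped at each time. Skeletal muscle markers (5 genes) summed to 375.2 to 412.5 in LAN4 fish before stress, against 41.13 to 215.4 in CD fish, and to 302.9 to 457.2 in LAN4 fish at 6 h, against 17.93 to 143.4 in CD fish, while the diets overlapped at 1 h (129.1 to 333.6 in LAN4 fish, against 9.877 to 158.6 in CD fish). Cartilage markers (6 genes) were higher in LAN4 fish before stress, at 402.2 to 498.7 against 195.1 to 363.9 in CD fish, and at 6 h, at 460.7 to 498.7 against 183.3 to 314.7 in CD fish. Thrombocyte markers (4 genes) were lower in LAN4 fish at 1 h, at 617.5 to 791.3 against 815.1 to 954.9 in CD fish, and higher at 6 h, at 804.2 to 997.7 against 478.6 to 766.5 in CD fish. Most of this sum was vwf (mean 648 CPM), with itga2b at 152 CPM, so it is close to a value of 1 gene. Neutrophil and B cell markers were lower in LAN4 fish before stress, with the diets apart by a narrow margin. Of the erythrocyte lists, heme synthesis and iron (14 genes) was lower in LAN4 fish at 6 h, at 731.8 to 913.8 against 1120 to 1725 in CD fish. That sum rests largely on alas2 (mean 578 CPM) and tfr1a (245 CPM). Membrane and skeleton (8 genes) overlapped at 6 h, at 1145 to 1446 in LAN4 fish against 1125 to 1263 in CD fish. Transcription and growth factors (8 genes) was higher in LAN4 fish at 1 h, at 260.6 to 298.7 against 252.6 to 258.5 in CD fish. The part of all these lists in the diet comparisons was not tested.

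The opposite signs at 1 h and 6 h led to a further contrast, the diet difference at 6 h minus that at 1 h, which was chosen after seeing the data. No gene of the set passed it (0.0173% of all genes did), 27 had an unadjusted p under 0.05, against 16.9% of all genes, and the median was -0.31 with 20 genes above 0. DESeq2 gave 2 genes, both lower, against 2.52% of all genes. Having been chosen for its sign, the contrast is no separate evidence of it. For hbb1 the value was -2.17 ± 0.59 (edgeR, adjusted p = 0.119), which passed in 1 of 24 other settings (DESeq2, adjusted p = 0.0178). For the neighbour it was -1.98 ± 0.39 (adjusted p = 0.0739), which passed in 3 of 24: DESeq2, without CD pre-stress replicate 1 and without CD 6 h replicate 3 (adjusted p of 0.000118, 0.0367 and 0.046). No gene of the set differed between diets in its change to 1 h or to 6 h, where 0.00864% and 0.00432% of all genes did, and 10 and 4 had an unadjusted p under 0.05, against 9.84% and 4.26% of all genes. DESeq2 gave 0 in both, against 0.225% and 0.0346%.

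Sampling times were compared within each diet to ask what followed the stress. At 6 h against pre-stress, 2 genes of the set were higher in LAN4 fish and 1 in CD fish, and none was lower. Of all genes, 2.36% were called higher and 1.42% lower in LAN4 (3.78% together), and 1.81% higher and 1.3% lower in CD (3.11% together). DESeq2 gave 2 genes in LAN4, both higher, and 2 in CD, 1 higher and 1 lower, against 5.87% and 5.33% of all genes. LOC106579115 (ENSSSAG00000043094, chromosome 2) had 44.3, 54.9 and 61.0 CPM in LAN4 fish at 6 h, against 39.0, 43.1 and 35.1 CPM in LAN4 fish before stress. In CD fish it had 62.9, 64.5 and 53.2 CPM at 6 h, against 42.5, 42.3 and 38.6 CPM before stress. It rose in both diets with no overlap, by 0.46 ± 0.13 in LAN4 (adjusted p = 0.0499) and 0.59 ± 0.13 in CD (adjusted p = 0.017, edgeR). The LAN4 call was kept in 9 of 24 other settings. It was lost without any 1 of 12 libraries: each pre-stress library, CD 1 h replicates 1 and 2, LAN4 1 h replicate 2, CD 6 h replicate 1, and LAN4 6 h replicates 2 and 3 (adjusted p of up to 0.219). The CD call was kept in 19 of 24 settings and lost without CD pre-stress replicate 2 or 3 or CD 6 h replicate 1 or 2 (up to 0.089).

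ENSSSAG00000095013 had 9.93, 13 and 12.6 CPM in LAN4 fish at 6 h, against 6.27, 7.34 and 5.46 CPM in LAN4 fish before stress. The groups were well apart, the log2 fold change was 0.90 ± 0.16 (edgeR, adjusted p = 0.00293), and the call was kept in all 24 other settings. In CD fish it had 7.19, 8.46 and 7.30 CPM at 6 h, against 5.34, 5.18 and 5.34 CPM before stress. There the groups did not overlap either, and the value of 0.57 ± 0.16 did not pass the test (adjusted p = 0.0567).

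At 1 h against pre-stress no gene of the set was called in either diet, where 1.14% of all genes were called in LAN4 and 1.91% in CD. At an unadjusted p under 0.05 there were 9 genes in LAN4 and 12 in CD, below the 14.5% and 17.5% of all genes. DESeq2 gave 0 in LAN4, against 2.24% of all genes, and 4 in CD, 1 higher and 3 lower, against 4.39%. The median log2 fold change was 0.17 in LAN4, with 79 genes above 0, and -0.09 in CD, with 38 above 0. At 6 h the medians were 0.04 with 58 genes above 0 in LAN4 and 0.12 with 69 above 0 in CD. Without 1 library the 1 h medians ran from 0.03 (without LAN4 pre-stress replicate 3) to 0.24 in LAN4 and from -0.20 to 0.00 (without CD 1 h replicate 1) in CD. Those of 6 h ran from -0.08 to 0.14 in LAN4 and from -0.05 to 0.22 in CD. At 6 h the sign turned in LAN4 without LAN4 pre-stress replicate 3 (-0.08) or LAN4 6 h replicate 3 (-0.07), and in CD without CD 6 h replicate 2 (-0.05). For hbb1 the change to 1 h was 0.02 ± 0.41 in LAN4 and -1.09 ± 0.42 in CD (edgeR, adjusted p of 0.991 and 0.196). To 6 h it was -0.72 ± 0.42 in LAN4 and 0.35 ± 0.41 in CD (edgeR, adjusted p of 0.407 and 0.72). The neighbour changed to 6 h by -1.33 ± 0.27 in LAN4 (edgeR, adjusted p = 0.0119), a call kept in 21 of 24 other settings. In CD it changed by -0.47 ± 0.27 (edgeR, adjusted p = 0.396). Libraries of 1 h came from another sequencing lane than those of the other times, so time and lane cannot be told apart at 1 h.

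Of the 41 erythrocyte list genes, 3 rose at 6 h in both diets, against 1.08% of all genes, and none of these was in the set. No other gene of these lists was called in either diet at 6 h. They were foxo3b, a transcription factor gene (1.31 ± 0.19 in LAN4 and 1.45 ± 0.19 in CD), ulk1a, which starts autophagy (0.95 ± 0.12 and 0.94 ± 0.12), and slc25a38b, a mitochondrial glycine carrier of heme synthesis (0.41 ± 0.11 and 0.51 ± 0.11). Their r with hbb1 was -0.47, -0.32 and -0.32. In edgeR's test their adjusted p was at most 0.0461.

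**Figure D5:**
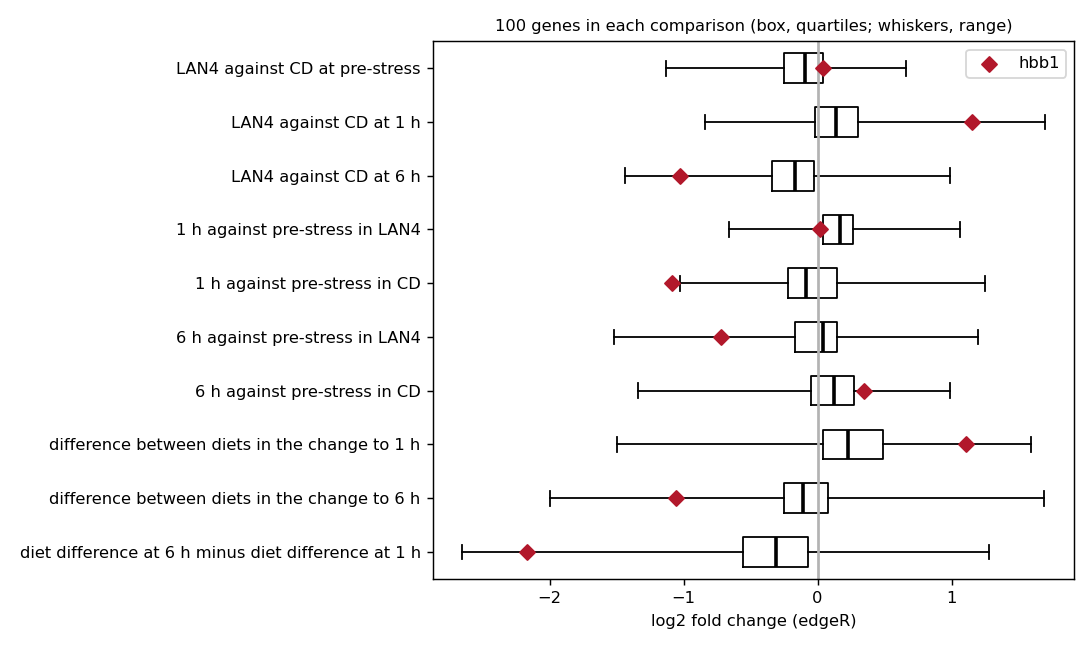
Log2 fold changes (horizontal, edgeR) of the 100 genes in 10 comparisons, as boxes of the quartiles with the median and whiskers to the lowest and highest gene, and hbb1 as a red diamond. The median lies at 0.14 for LAN4 against CD at 1 h and at -0.17 at 6 h, and hbb1 lies at 1.15 and -1.03.

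Group means were not used in the choice. The r within groups was used and is high by construction, so the r of group means cannot be judged against it. Over the 6 group means, 67 of the 100 genes had r above 0 with hbb1, against 39.4% of ranked genes, with a median of 0.25 against -0.14. Rhd had 0.64, eif4ebp2 0.29, ypel3 0.21 and clus -0.59. An r above 0.8 was found in 6 genes of the set, against 2.2% of ranked genes. These values describe 6 points that share their fish with the choice of the genes.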

How the data were processed

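RNA of gill from 18 fish was sequenced. The authors deposited raw counts per Ensembl gene and library, made with featureCounts (Subread 1.5.1 in the file headers) on Ssal_v3.1, reverse-stranded, with fragments mapped to several places or genes not counted, so recently duplicated salmon genes are undercounted and near-identical copies are uncertain. Counts of the 6 h libraries were incomplete outside 16 chromosomes, so CPM, the ranking and the tests used these chromosomes only. RefSeq names were given where gene and RefSeq spans overlapped by at least 0.5 of each. The 100 genes and the gene lists were chosen with earlier results of these data known. Of 310 list names, 127 matched.

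Genes passing edgeR's expression filter (23153, all 100 of the set) were tested in edgeR 4.0.16 (R 4.3.3; TMM, 1 mean per group over 18 libraries, robust quasi-likelihood test, Benjamini-Hochberg adjustment over all genes, adjusted p under 0.05). The SE given with edgeR values was derived from the test, as the log2 fold change without its sign divided by the square root of the F statistic. The fit was run on simulated counts with independent genes and large planted changes, so this does not test it for genes that move together. DESeq2 1.42.0, other normalization, no filter, all genes, only the libraries compared, a replicate block and leaving out each library were alternatives. Genes named are hbb1, its neighbour, the gene of highest r, part of the symbol-bearing genes, list genes, called genes and those at the limit. The choice among symbol-bearing genes was made after the genes were known. It left out some, such as ga45g and tmem54a, with higher r than gtpbp4, clus and ogg1. In addition, LOC106563833 and slc26a6.2 were singled out after their values were seen. Replicate numbers of LAN4 and CD fish before stress deviated together (r = 0.116, 0.169 and 0.141), and the block changed no call there. No sequence of these genes was used here.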

Additional observations from a re-analysis of the deposited data

How the results depend on the processing

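No gene of the set was called in the diet comparisons before stress and at 1 h, in 1 h against pre-stress in LAN4, or in the differences between diets in the change over time, under any alternative run. DESeq2 gave 4 genes for diet at 6 h, 4 for 1 h against pre-stress in CD, 2 for 6 h against pre-stress in CD and 2 for the diet difference at 6 h minus that at 1 h. The shares of all genes were 3.5%, 4.39%, 5.33% and 2.52%. For 1 h against pre-stress in CD, only the libraries compared gave 2 and the replicate block 1. For 6 h against pre-stress in CD, all genes of the files gave 4 and only the libraries compared 0. For 6 h against pre-stress in LAN4, the count was 1 with no filter, with the replicate block and with only the libraries compared. Leaving out 1 library gave 0 to 2 genes for 1 h in CD, 0 to 2 for 6 h in CD and 1 to 2 for 6 h in LAN4. For settings other than DESeq2 the share of all genes called is not given here, so these counts are no result about the set. The cause of the changes in count was not tested. Outside the pre-stress diet comparison, r by replicate number was also above 0 throughout between LAN4 pre-stress and CD 6 h fish (0.115, 0.010 and 0.278). Those groups enter together in the difference between diets in the change to 6 h, where no gene of the set was called. It was above 0 between LAN4 fish of 1 h and 6 h as well (0.191, 0.159 and 0.194). These enter together in the diet difference at 6 h minus that at 1 h, where the block gave 0 genes and -2.23 for hbb1 (edgeR, adjusted p = 0.14). The block changed no other count. The set shared 66 genes with one chosen by Spearman's rho, 32 with one chosen without the 6 h libraries, and 45 to 86 with 1 library left out. TMM library sizes, a pseudocount of 2 and a mean of at least 5 CPM shared 85, 93 and 79. The 11 genes under 2 CPM rest on few reads, with as few as 1 count in a library.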
